A study of Mus musculus with 8 samples.

Results

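The striated muscle miRNAs are a set of 7 mature mouse microRNAs: miR-1a-3p, miR-206-3p, miR-133a-3p, miR-133b-3p, miR-133a-5p, miR-1a-1-5p and miR-499-5p. They were picked by name, as the miRNAs of skeletal and heart muscle, from the 1881 mouse miRNAs that the arrays carry probes for. All 7 have probes on the array. Of the 7, 4 gave a signal well above background on all 8 arrays and were tested among 470 tested miRNAs. The other 3 stayed at or near background and are given as values with no test.

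The material was RNA of exosomes, the small vesicles that cells release, isolated from the amniotic fluid of pregnant mice by size-exclusion chromatography. The LPS group (4 arrays) came from preterm births after an intraperitoneal injection of lipopolysaccharide, an inflammatory molecule of the bacterial envelope. The dose was 100 μg per kg body weight, given on day 14, and birth followed roughly 48 h after it. The cesarean group (4 arrays) came from cesarean sections and served as the control, and how those mice were treated is not stated. The LPS injection and the way of birth thus go with the group, and their parts cannot be told apart. Below, "with LPS" names the LPS group as a whole. All samples carry the label of day 17 of pregnancy, so the labels do not settle whether both groups were of the same gestational age. The sources used here give neither strain nor genotype. They also do not say whether the arrays of a group came from separate animals, so the p-values below measure only the spread between these samples, which may be technical.

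Striated muscle fibres, in the limb, trunk and heart, are the main known source of these miRNAs. In these cells miR-1 favours differentiation, miR-133 is made from the same transcripts and acts on proliferation and splicing regulators, miR-206 is the skeletal muscle relative of miR-1, and miR-499 lies in an intron of a myosin heavy chain gene and helps set the slow fibre type. A miRNA finds its targets mainly through its seed, bases 2 to 8, so members with the same seed share most of their predicted targets.

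The sequences below show, with the seed in capitals, the chromosome 1 pair of tested members, miR-206-3p and miR-133b-3p, and miR-499-5p. They are RefSeq sequences (GRCm38.p6), in which 4 of the 7 members were matched. miR-208b-3p, the miRNA of the slow myosin gene, stands beside miR-499-5p because the starts of the pair are alike.
mmu-miR-206-3p: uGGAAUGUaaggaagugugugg
mmu-miR-133b-3p: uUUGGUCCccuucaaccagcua
mmu-miR-499-5p: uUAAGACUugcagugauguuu
mmu-miR-208b-3p: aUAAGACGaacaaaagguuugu

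The brighter probes of these tested members do not reach their full length. The brighter miR-206-3p probe, ccacacacttccttac, pairs with bases 7 to 22 of the miRNA, and the brighter miR-133b-3p probe, tagctggttgaaggggacc, pairs with bases 4 to 22. The probe of miR-1a-3p holds the complement of the miR-206-3p seed, so this pair shares a seed. Aligned over 16 letters, however, the probes of miR-206-3p and miR-1a-3p differed in 4. The probes of miR-133b-3p and miR-133a-3p differed in only 1 of 18 letters, and the array may not keep these apart.

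In the genome the members lie in pairs. On mm9, the build the array files use, the miR-206-3p probe lies at chr1:20669143-20669157 and the miR-133b-3p probe at chr1:20672919-20672936, with starts 3776 bp apart. Mir206 and Mir133b both overlap Lincmd1, a long non-coding RNA of muscle. The probes of miR-1a-3p (chr2:180123802-180123822) and miR-133a-3p (chr2:180133146-180133163) start 9344 bp apart, and their genes there, Mir1a-1 and Mir133a-2, overlap the host transcript Mir1a-1hg. Each of these probes matches 2 loci in the files, so neither signal can be assigned to a single gene copy. The miR-499-5p probe lies at chr2:155448631-155448649, where Mir499 overlaps the myosin gene Myh7b.

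The arrays differed in brightness and in the number of miRNAs well above background, which was lowest on LPS array 1. Between 403 and 534 miRNAs were well above background on an array, the log2 of the 75th percentile signal lay between 7.72 and 8.67 on LPS arrays and between 7.74 and 8.81 on cesarean arrays, and no miRNA spot was saturated. The LPS arrays differed among themselves well beyond the muscle miRNAs: arrays 1 and 3 both lay above arrays 2 and 4 for 120 of the 470 tested miRNAs (25.5%) and both below them for 191 (40.6%), a split noticed in the data that no label describes. All 8 arrays lay on 1 slide with 1 scan time, LPS arrays in row 1 and cesarean arrays in row 2, so slide row and group cannot be told apart. Levels below are log2 of the signal of the brighter probe, scaled to a common 75th percentile over 618 probes, with a floor of 3.75. Over the 4 tested members the coefficient of variation between the spots of a probe was 1.57% to 16.2% on an array, from 11 to 15 kept spots. Levels compare arrays for 1 miRNA and do not rank the miRNAs among themselves.

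The groups overlapped for the 4 tested striated muscle miRNAs, and the LPS arrays lay far from one another. Of the 4 tested members, 0 passed the threshold (limma, Benjamini-Hochberg adjusted p of 0.05) and 0 had an unadjusted p under 0.05. Over all 470 tested miRNAs 4.89% passed, 2.55% higher and 2.34% lower with LPS, and 25.1% had an unadjusted p under 0.05. The groups overlapped for all 4 members, while 17.0% of the tested miRNAs had groups that did not overlap. With only 4 members, counts of 0 say little beside these shares. Among the 4, miR-133a-3p and miR-133b-3p may not be kept apart by the array. In each of the 4, LPS arrays 1 and 3 lay above every cesarean array and LPS arrays 2 and 4 below every cesarean array. Part of this order depended on the scaling: without scaling between arrays, LPS array 1 lay below the highest cesarean array for miR-1a-3p, miR-133a-3p and miR-133b-3p (7.36 against 7.43, 6.95 against 7.47 and 7.84 against 8.08), and the full order held for miR-206-3p alone. LPS arrays 2 and 4 remained below every cesarean array for all 4 without scaling. Since the values are relative amounts in bulk exosome RNA, a change in the number of vesicles from muscle and a change in the RNA per vesicle cannot be told apart.

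**Figure D1:**
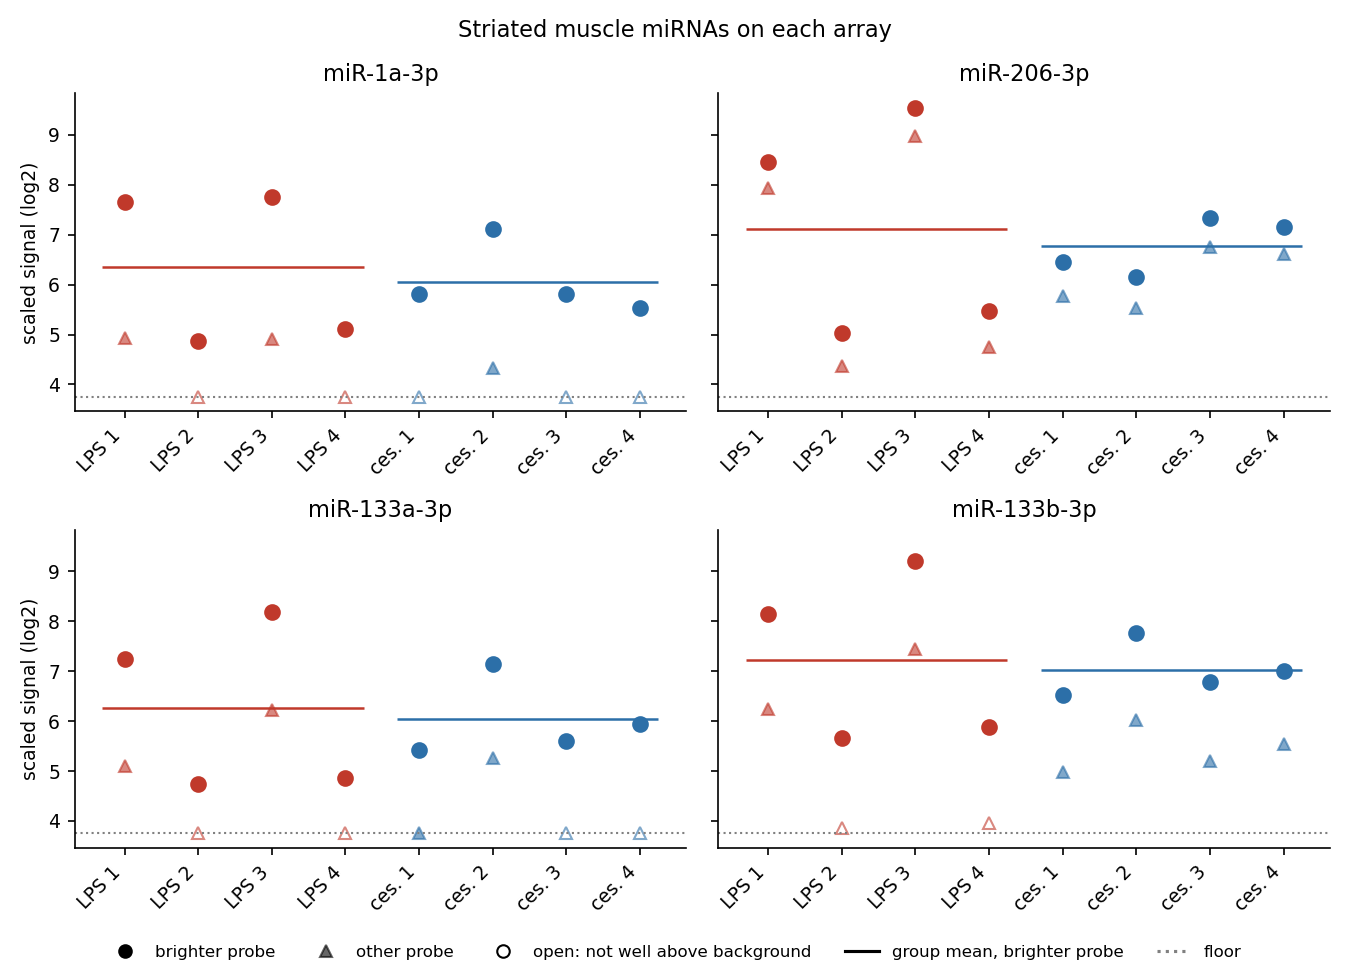
Scaled log2 signal (y axis) of the 4 tested striated muscle miRNAs on each of the 8 arrays (x axis, ces. for cesarean), with circles for the brighter probe, triangles for the other probe, open symbols for probes not well above background, horizontal lines for the group means of the brighter probe and a dotted line for the floor of 3.75. With this scaling, the circles of LPS arrays 1 and 3 lie above all cesarean circles and those of LPS arrays 2 and 4 below them in every panel.

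miR-206-3p, which in the adult is nearly confined to skeletal muscle, varied most of the 4 over the LPS arrays and least over the cesarean arrays by the distance from lowest to highest. Its level was 8.45, 5.02, 9.54 and 5.47 on LPS arrays 1 to 4, against 6.46, 6.15, 7.33 and 7.16 on cesarean arrays 1 to 4. LPS array 3 was 22.9-fold above LPS array 2, while the highest cesarean array was 2.27-fold above the lowest. The means were 7.12 ± 2.22 with LPS and 6.77 ± 0.56 at cesarean section (SD, n = 4 each), and they differed by 0.35 ± 0.90 on the log2 scale (SE; 95% interval -1.66 to 2.35; limma adjusted p = 0.867). The interval takes in changes of several fold in either direction. The SD over the LPS arrays ranked 4 among the 470 tested miRNAs, and that over the cesarean arrays ranked 85. The second probe, ccacacacttcctta, which pairs with bases 8 to 22, read 7.94, 4.36, 8.98 and 4.75 on the LPS arrays and 5.78, 5.54, 6.74 and 6.61 on the cesarean arrays, the same order within each group.

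miR-1a-3p, the seed relative of miR-206-3p made in both skeletal and heart muscle, stood at 7.65, 4.88, 7.75 and 5.12 on LPS arrays 1 to 4, against 5.81, 7.11, 5.80 and 5.52 on cesarean arrays 1 to 4. LPS arrays 1 and 3 were almost level with each other and a little above cesarean array 2, which stood apart from the other 3 cesarean arrays. The means were 6.35 ± 1.56 with LPS and 6.06 ± 0.71 at cesarean section (SD, n = 4 each), and the log2 difference was 0.29 ± 0.69 (SE; 95% interval -1.24 to 1.82; limma adjusted p = 0.851). The highest LPS array was 7.32-fold above the lowest. Its second probe was dim, well above background on LPS arrays 1 and 3 and cesarean array 2 alone, at 4.93, 4.91 and 4.34, which are the same 3 arrays that were highest by the brighter probe.

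miR-133a-3p, made from the same transcripts as miR-1a, read 7.25, 4.74, 8.19 and 4.86 on LPS arrays 1 to 4, against 5.43, 7.15, 5.61 and 5.95 on cesarean arrays 1 to 4. LPS array 3 was 10.95-fold above LPS array 2, and cesarean array 2, the highest of its group, was 3.30-fold above cesarean array 1. The means were 6.26 ± 1.73 with LPS and 6.03 ± 0.78 at cesarean section (SD, n = 4 each), and the log2 difference was 0.23 ± 0.75 (SE; 95% interval -1.45 to 1.90; limma adjusted p = 0.895). Its second probe was above background on 4 of the 8 arrays: LPS arrays 1 and 3 at 5.10 and 6.22, cesarean array 2 at 5.26, and cesarean array 1 at the floor. By that probe LPS array 1 lay below cesarean array 2.

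miR-133b-3p, the partner of miR-206 on chromosome 1, read 8.14, 5.66, 9.21 and 5.89 on LPS arrays 1 to 4, against 6.52, 7.76, 6.79 and 7.01 on cesarean arrays 1 to 4. The LPS arrays again fell into a high and a low pair on either side of the cesarean arrays, with LPS array 3 being 11.8-fold above LPS array 2. The means were 7.22 ± 1.74 with LPS and 7.02 ± 0.53 at cesarean section (SD, n = 4 each), and the log2 difference was 0.20 ± 0.72 (SE; 95% interval -1.41 to 1.81; limma adjusted p = 0.901). Its second probe, 1 base shorter, read 6.25 and 7.44 on LPS arrays 1 and 3 and 4.98 to 6.02 on the cesarean arrays, and it was not well above background on LPS arrays 2 and 4.

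With LPS arrays on either side of the cesarean arrays, the group differences were small, and they turned round when 1 of the 2 high LPS arrays was left out. All 4 differences were above 0 with 8 arrays, at a median of 0.26 over the 4, against a median of -0.06 over all tested miRNAs. Without scaling between arrays the median over all tested miRNAs was -0.20, and the 4 differences stayed above 0, from 0.06 for miR-133b-3p to 0.20 for miR-206-3p. Without LPS array 3 they were -0.18 for miR-1a-3p, -0.42 for miR-133a-3p, -0.46 for miR-133b-3p and -0.46 for miR-206-3p. Without LPS array 1 they lay at -0.15, -0.10, -0.10 and -0.10 in the same order. Without LPS array 2 they were 0.78 for miR-1a-3p, 0.73 for miR-133a-3p, 0.725 for miR-133b-3p and 1.05 for miR-206-3p. Over all 8 arrays left out in turn, the lowest limma adjusted p was 0.490, for miR-206-3p without LPS array 2.

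**Figure D2:**
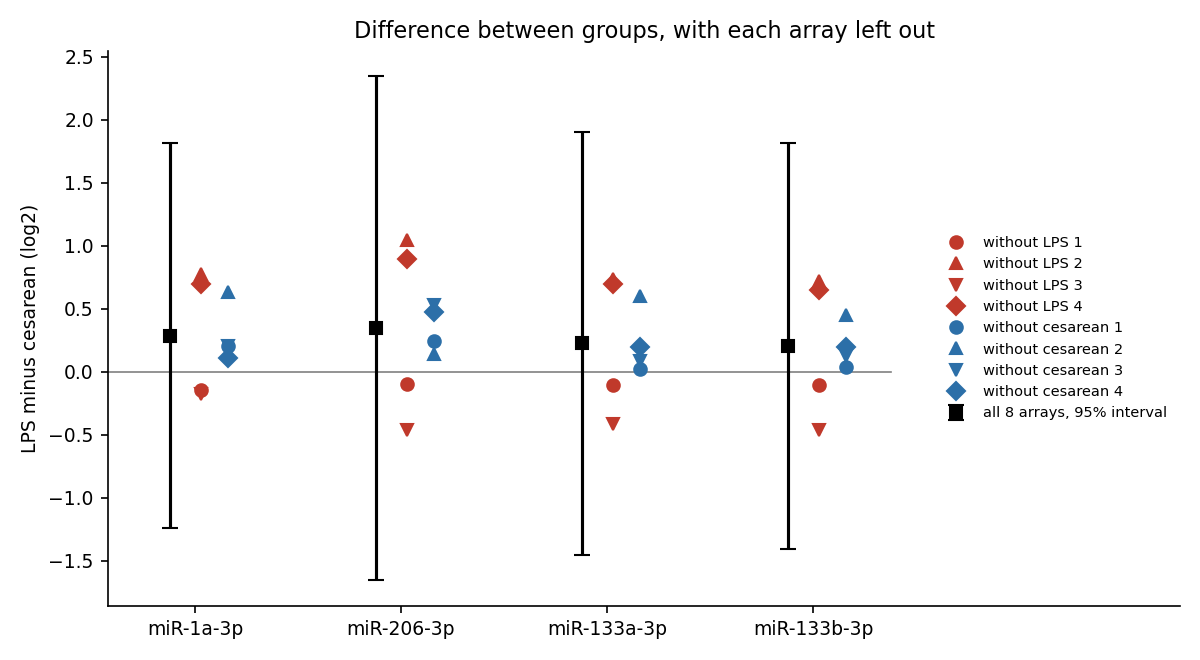
Difference between groups (y axis, LPS minus cesarean, log2) for the 4 tested striated muscle miRNAs (x axis), with a black square and 95% interval bar for all 8 arrays and coloured symbols for each array left out. The differences without LPS 1 or LPS 3 lie below 0 for every miRNA, and all symbols lie within the intervals.

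The spread over LPS arrays was among the widest on the array. The SD over the LPS arrays had a median of 1.73 over the 4 tested members, against 0.45 over all tested miRNAs, and the SD over the cesarean arrays had a median of 0.64, against 0.35. Among 470 tested miRNAs, the LPS SD of miR-133b-3p ranked 11, that of miR-133a-3p 12 and that of miR-1a-3p 18. The cesarean SD was less extreme, with ranks of 93, 28 and 40. A wider spread with LPS was common, as 320 of 470 tested miRNAs (68.1%) had an LPS SD above their cesarean SD. The order itself was uncommon: 15 of 470 (3.19%) had 2 LPS arrays above and 2 below all cesarean arrays, and in 5 of 470 (1.06%) the high pair was LPS 1 and LPS 3. Those 5 were the 4 tested members and miR-205-5p, a miRNA of skin and other squamous epithelia. This order was chosen for counting after the members' values were seen, and it carries no test.

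**Figure D3:**
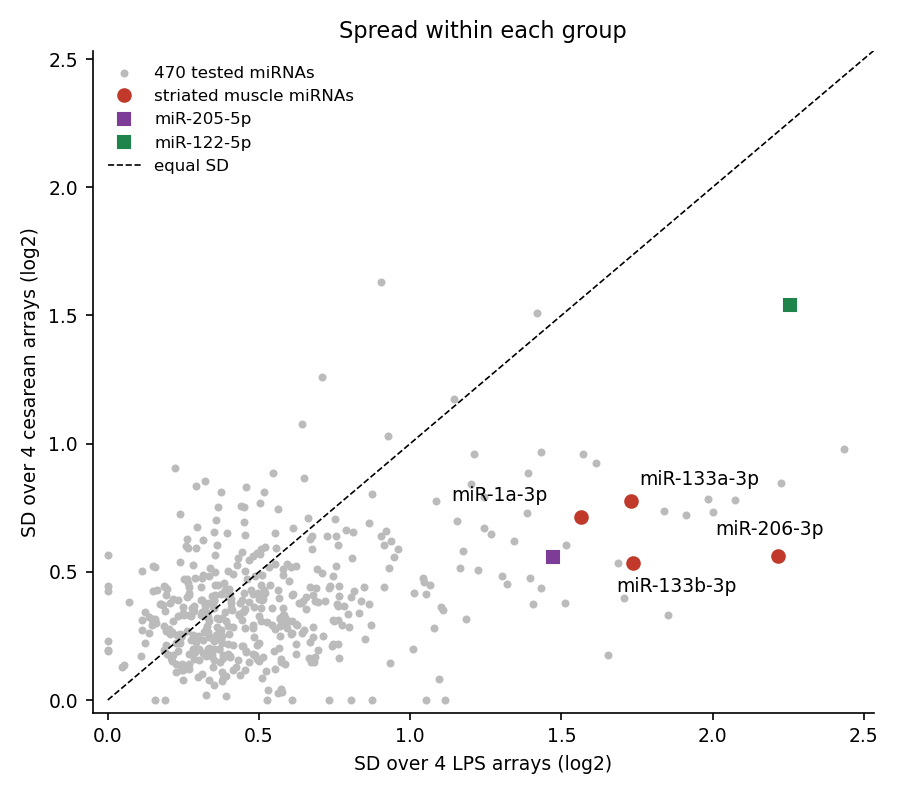
SD over the 4 LPS arrays (x axis, log2) against SD over the 4 cesarean arrays (y axis, log2) for each of the 470 tested miRNAs, with the 4 striated muscle miRNAs in red, miR-205-5p in purple, miR-122-5p in green and a dashed line of equal SD. The 4 muscle miRNAs lie at LPS SDs of 1.56 to 2.22 and cesarean SDs of 0.53 to 0.78, below the dashed line.

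Within the cesarean group miR-206-3p parted from the others. Cesarean array 2 was the highest of its group for miR-1a-3p, miR-133a-3p and miR-133b-3p, at 0.906, 1.004 and 0.641 above each miRNA's own 8-array mean (log2). For miR-206-3p the same array was the lowest of its group, at -0.80. Across the 8 arrays, the mean absolute difference between profiles centred on their own mean was 0.13 for miR-133a-3p and miR-133b-3p, whose probes differ in 1 letter. It was 0.27 for miR-1a-3p and miR-133a-3p, which share a host transcript, and 0.30 for miR-1a-3p and miR-133b-3p. The distance of miR-206-3p was 0.54 to miR-133b-3p, its neighbour on chromosome 1, 0.63 to miR-133a-3p and 0.70 to its seed relative miR-1a-3p.

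The miRNAs of slow fibres were near background. Of the probes of miR-499-5p and miR-208b-3p, only those of miR-499-5p on LPS array 3 were well above it. For miR-499-5p the background-subtracted signal, unscaled, was 4.20, 3.04, 14.3 and 1.92 on LPS arrays 1 to 4, against 2.09, 6.14, 2.86 and 2.57 on cesarean arrays 1 to 4. Only LPS array 3 was well above background, in 13 of 15 spots, and the second probe read 15.3 there in 12 of 15 spots. On cesarean array 2 the second probe read 8.39, with 2 of 14 spots above background. After scaling, the linear signal of the brighter probe was 9.87 on LPS array 3, 5.17 on LPS array 1 and 4.93 on cesarean array 2. All of these lie below the linear floor of 13.5. miR-208b-3p, no member, read 7.90 and 8.12 by its probes on cesarean array 2, in 1 and 2 of 15 spots above background, while all its values on the other arrays lay between -1.99 and 0.20. No fold or test is given for these, since the signals do not clear the background in a whole group.

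**Figure D4:**
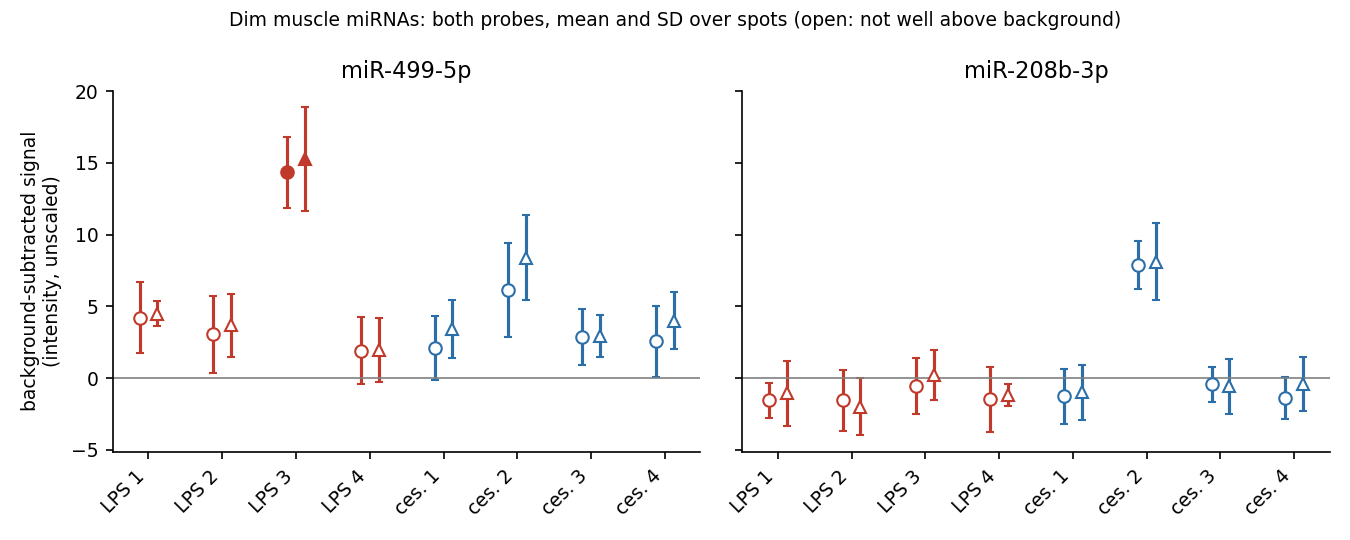
Background-subtracted signal (y axis, unscaled intensity) of miR-499-5p and miR-208b-3p on each array (x axis, ces. for cesarean), with a circle and a triangle for the 2 probes, bars for the SD over spots and filled symbols where a probe was well above background. miR-499-5p is filled on LPS 3 alone, at 14.3 and 15.3, and miR-208b-3p is open everywhere, with 7.90 and 8.12 on cesarean 2.

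The opposite hairpin strands were not well above background. miR-133a-5p had 0 of its spots above background on every array, with unscaled linear probe signals from -1.36 to 5.06. miR-1a-1-5p, with 3 probes, also had 0 on every array, with such signals from 1.60 to 5.07. Such strands are usually degraded when the hairpin is processed, and these signals say only that no level could be measured.

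Of 11 further miRNAs from these or related hairpins (miR-1a-2-5p, both strands of miR-1b, miR-206-5p, miR-133b-5p, miR-133c, miR-499-3p, and both strands of miR-208a and miR-208b), 0 could be tested. The heart miRNA miR-208a-5p was well above background on 1 array, cesarean array 2, in 8 of 15 spots of its first probe. Its background-subtracted signal there, on the linear and not the log2 scale, was 10.4, and LPS array 1 read 10.2 with 4 such spots. Of 16 miRNAs that muscle is rich in without being their only source, 13 were tested, and 0 rose and 0 fell, against 4.89% of all tested miRNAs. An unadjusted limma p under 0.05 came for 6 of the 13, against 25.1% of all tested miRNAs. Of these 6, miR-486a-5p, miR-26a-5p, miR-29b-3p and miR-431-5p were higher with LPS (log2 differences of 0.83, 0.69, 0.85 and 0.59). The others, miR-181a-5p and miR-214-3p, were lower (-0.96 and -1.34). For the 13 tested miRNAs the median log2 difference was 0.23. Their mean level ran from 7.78 to 8.13 on LPS arrays and from 7.61 to 8.20 on cesarean arrays, so the LPS arrays did not lie on either side of the cesarean arrays as they did for the muscle-specific members. Among them miR-181a-5p, which acts in muscle differentiation and in lymphocytes, came nearest to the threshold, at 5.26 ± 0.27 with LPS and 6.21 ± 0.33 at cesarean section (SD, n = 4 each; limma adjusted p = 0.0567).

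The miRNA whose profile was most like the members' was miR-205-5p in each of the 4 cases. Among 466 tested miRNAs that are no members, its mean absolute distance over the 8 arrays was 0.40 to miR-1a-3p, 0.46 to miR-133a-3p, 0.45 to miR-133b-3p and 0.71 to miR-206-3p, against medians of 1.03 to 1.26 over all compared. Its levels were 7.82, 4.97, 7.16 and 4.997 on LPS arrays 1 to 4, against 6.57, 6.90, 5.60 and 6.54 on cesarean arrays 1 to 4. The next nearest were miR-6931-5p and miR-128-3p, a neural miRNA, for miR-1a-3p and miR-133a-3p. For miR-133b-3p they were miR-375-3p, known from pancreatic islets and epithelia, and miR-128-3p. For miR-206-3p they were miR-215-5p of kidney and intestine, at 0.92, and miR-381-3p, also at 0.92. Of these, miR-215-5p lay at the floor on every cesarean array, miR-375-3p on LPS array 4 and cesarean array 1, and miR-381-3p on LPS array 4.

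**Figure D5:**
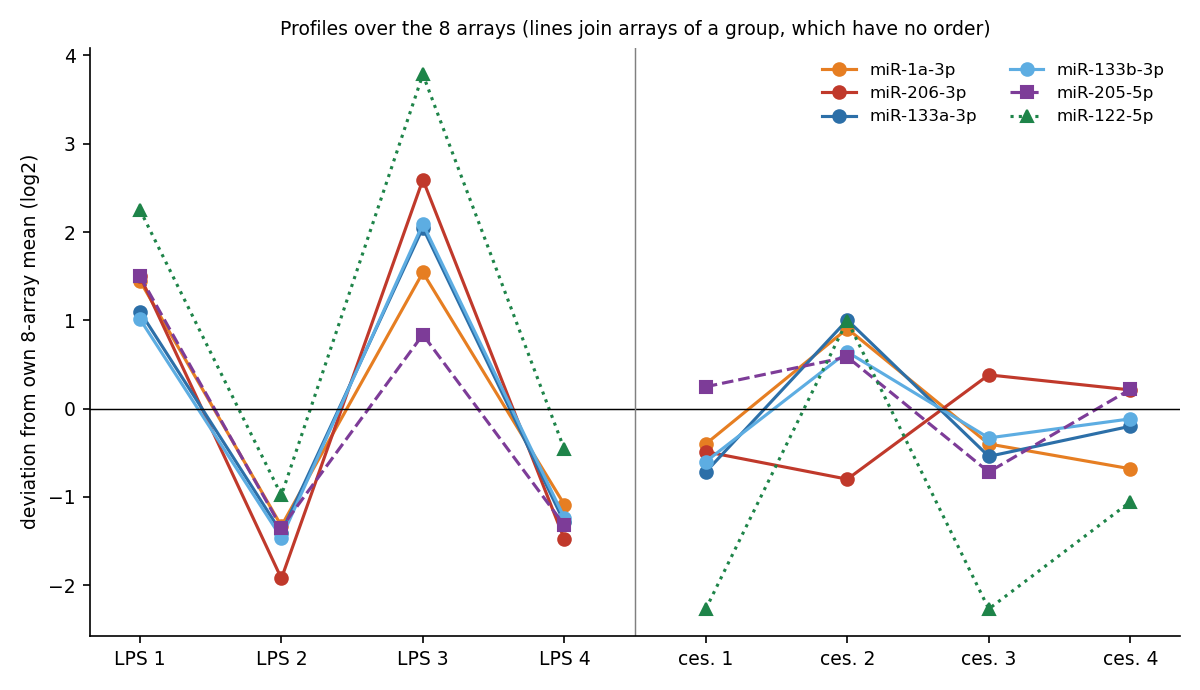
Deviation of each miRNA from its own 8-array mean (y axis, log2) on the 4 LPS and 4 cesarean arrays (x axis, ces. for cesarean) for the 4 tested striated muscle miRNAs, miR-205-5p (dashed) and miR-122-5p (dotted). All 6 are high on LPS 1 and 3 and low on LPS 2 and 4, while on cesarean 2 miR-206-3p, at -0.80, lies below its mean and the other 5 lie above theirs.

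Markers of other tissues moved with the muscle miRNAs on some arrays. The liver miRNA miR-122-5p was 8.27, 5.04, 9.81 and 5.56 on LPS arrays 1 to 4, against 7.02 and 4.97 on cesarean arrays 2 and 4, and it was not well above background on cesarean arrays 1 and 3. Its LPS arrays had the same order as the muscle miRNAs, and its partner strand miR-122-3p was above background on 0 arrays. The 3 skin miRNAs together had a mean level of 8.31, 6.11, 7.43 and 5.90 on LPS arrays 1 to 4, against 6.17, 6.75, 5.72 and 6.40 on cesarean arrays 1 to 4, so by this mean LPS arrays 1 and 3 were again above all the rest. Its members were not alike: miR-31-5p read 6.396, 6.61, 6.57 and 5.83 on LPS arrays 1 to 4, highest on LPS array 2, against 4.72 to 6.43 on cesarean arrays. The mean level of the 2 tested smooth muscle miRNAs ran from 5.72 to 6.65 over the LPS arrays and from 4.98 to 5.91 over the cesarean arrays. LPS arrays 1 and 3 were the higher of the LPS arrays by this mean. The part of other tissues in the muscle miRNA levels was not tested.

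By their mean levels, most marker lists held the same pair of LPS arrays high. Of 12 lists with a tested miRNA, the striated muscle members included, 10 had a higher mean on LPS arrays 1 and 3 than on arrays 2 and 4, the exceptions being the leukocyte and epithelial lists. Over all 470 tested miRNAs, counted singly, 25.5% had arrays 1 and 3 above arrays 2 and 4, and 40.6% had them below. These shares of single miRNAs and the count of list means are unlike measures. The liver and endothelial lists hold 1 tested miRNA each, and the muscle-enriched list shares miR-486a-5p and miR-214-3p with other lists. Members of a list could also differ: miR-194-5p, of kidney and intestine, was 6.09 on LPS array 1 and 6.74 on LPS array 2. The mean of 3 red blood cell miRNAs was 8.78 to 9.375 with LPS and 7.92 to 8.60 at cesarean section, with LPS arrays 1 and 3 highest. Its members were not alike. miR-451a and miR-486a-5p were highest on LPS arrays 1 and 3, while miR-144-3p read 4.74, 5.11, 4.84 and 4.87 on LPS arrays 1 to 4. The mean of 5 epithelial miRNAs of the miR-200 family was 7.60 to 8.29 with LPS and 6.54 to 7.09 at cesarean section, that of 3 leukocyte miRNAs was 6.92 to 7.51 with LPS and 6.62 to 7.03 at cesarean section. That of 3 mesenchymal miRNAs was 7.81 to 8.55 with LPS and 8.71 to 9.93 at cesarean section. For 3 tested neural miRNAs the mean was 5.16, 3.87, 4.83 and 3.86 on LPS arrays 1 to 4, against 5.28 to 7.17 on cesarean arrays, and that of 3 kidney and intestine miRNAs was 5.98 to 6.68 with LPS and 4.64 to 5.20 at cesarean section. The endothelial miRNA miR-126a-3p ran from 7.98 to 8.53 with LPS and from 7.88 to 9.04 at cesarean section. In array brightness LPS array 3 was the brightest LPS array at a log2 75th percentile of 8.67, while LPS array 1, at 7.83, was dimmer than LPS array 2, at 8.01.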

How the data were processed

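The members and the miRNA lists were chosen with earlier results of these data known. Spot intensity values were read by the authors with Agilent Feature Extraction, 10.7.1.1 per the file headers and 9.1 per the submitters' processing notes, as linear, background-subtracted signals, and marks for spots above background or set aside came with them per the file headers. A value table deposited by the authors gives normalized log2 values, and the method is not stated. Its column medians were 2.14 to 2.15, and each column correlated best with its own array (r from 0.958 to 0.964 over 336 miRNAs). The labels name a kit for cRNA and do not say how the miRNAs were labelled. The 8 samples were grouped by their labels, and replicate numbers follow the order of deposition.

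Each array had 58594 spots, 2164 of them controls. Controls and spots marked as outliers were left out (2.99% to 3.48% of miRNA spots), the signals of each array were scaled to its 75th percentile (618 probes above background on all arrays), probe means were raised to a floor of 13.5 and put on the log2 scale, and the brighter probe stood for each miRNA. A probe counted as well above background where a share of 0.5 of its spots did so. Tested were 470 miRNAs above background on at least 3 of 4 arrays of either group, by limma 3.58.1 in R 4.3.3 (with data.table, version 1.17.8), two-sided, with Benjamini-Hochberg adjustment over all 470 and a threshold of 0.05. Named were all members, 11 further miRNAs of muscle hairpins, 16 muscle-enriched ones, marker lists, and the 3 tested miRNAs nearest to each member in centred profile; any other miRNA named was picked once its values were known. The fit was tested on simulated data. Python 3.11.15, pandas 2.3.3, numpy 2.4.6 and matplotlib 3.10.9 served for tables and plots. With arrays, the number of arrays limits the precision.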

Additional observations from a re-analysis of the deposited data

How the results depend on the processing

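None of the 4 tested striated muscle miRNAs passed the threshold under any of 21 alternatives (scaling, background correction, value table, probe summary, floor, filter, spot marks, slide column as a block, each array left out; limma adjusted p from 0.490 to 0.988). The direction held in 19 of 21 for each, and reversed without LPS replicate 1 (-0.15 for miR-1a-3p, -0.10 for miR-133a-3p, -0.10 for miR-133b-3p and -0.10 for miR-206-3p) and without LPS replicate 3 (-0.18, -0.42, -0.46 and -0.46); with each array left out in turn the differences ran from -0.18 to 0.78 for miR-1a-3p, from -0.42 to 0.73 for miR-133a-3p, from -0.46 to 0.725 for miR-133b-3p and from -0.46 to 1.05 for miR-206-3p. LPS arrays 1 and 3 were the higher LPS pair in 19 of 20 recomputed orders, the exception being the software's total for miR-1a-3p. The order with LPS 1 and 3 above and LPS 2 and 4 below all cesarean arrays held for 4 of 4 members with the percentile over all probes, quantile normalization and the value table, for 2 with normexp, the other probe and the software's total, and for 1 without scaling. This check, and levels by the total and the value table, were added after seeing the data. The distance between the highest and lowest array moved by more than the SD between arrays for miR-1a-3p: by its other probe, which sat at the floor on 5 arrays, to 1.18 on LPS and 0.586 on cesarean arrays (2.87 and 1.59 in the main setting), and by the software's total to 3.90 on cesarean arrays. With normexp, whose added offset compresses dim signals, the LPS distances shrank to between 1.55 and 3.11 and the cesarean ones to between 0.88 and 1.18; without scaling the cesarean distance of miR-206-3p was 0.671, against 1.18 with it. The count of 23 miRNAs that passed, 12 higher and 11 lower with LPS, became 1 without scaling, 13 with the percentile over all probes, 36 with quantile normalization, 15 with normexp, 5 with the software's total, 2 with no filter, 15 with miRNAs above background on all 8 arrays, 1 with the slide column as a block, and 3 to 79 with an array left out (79 without LPS replicate 1, 4 without LPS replicate 2, 7 without LPS replicate 3, and 5, 4, 3 and 9 without cesarean replicates 1, 2, 3 and 4); the cause was not tested. No paired analysis was possible because the labels pair no samples; the slide column as a block pairs arrays by their place on the slide, with 1 array of each group per column. Signal over background limits the 3 untested members and the second probes of miR-1a-3p and miR-133a-3p.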

Other observations

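The scanner software also deposits a total signal per miRNA, and for miR-1a-3p this total was not the sum of its probes on every array. It equalled the sum of the probe totals on LPS arrays 1 and 3 and cesarean arrays 1 and 2. On the other arrays it was 18.8 times that sum on LPS array 2 (161.88 against 8.60), 12.8 times on LPS array 4, 8.47 times on cesarean array 3 and 20.5 times on cesarean array 4 (243.6 against 11.9). Read by this total alone, LPS arrays 2 and 4 would be the highest LPS arrays for miR-1a-3p, where the spots of both probes put them lowest. For miR-206-3p and miR-133b-3p the total matched the sum on all 8 arrays, and for miR-133a-3p it was at most 1.29 times the sum. For miR-499-5p on cesarean array 2 the total was 113.5 and the sum 4.20, a ratio of 27.0. Over all miRNAs that the software marked as detected, the total exceeded 2 times the sum in 19.3% to 21.8% on LPS arrays and in 18% to 22.7% on cesarean arrays. The source of these totals was not tested.

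The only other tested mouse miRNA in the sequence table with the seed of miR-206-3p, miR-6349, did not share the pattern of the LPS arrays. Its level was 4.36, 5.27, 5.25 and 5.93 on LPS arrays 1 to 4, against 5.24, 5.75, 6.05 and 6.06 on cesarean arrays 1 to 4, a log2 difference of -0.57 (limma adjusted p = 0.326). Another miRNA with that seed, miR-6382, was above background on 0 arrays.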
